A study of Homo sapiens with 54 samples.

Results

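ACTA1, the skeletal muscle actin gene, and 9 further genes were followed across 54 arrays of HepG2 cells. The 9 further genes are known as targets or partners of the transcription factor SRF and the cofactor YAP. HepG2 is a human hepatocellular carcinoma line used as a liver cell model. The 10 members were the rows with the Ensembl IDs listed for 4 muscle actins, ACTA1 (ENSG00000143632), ACTA2 (ENSG00000107796), ACTG2 (ENSG00000163017) and ACTC1 (ENSG00000159251), for the contractile proteins TAGLN (ENSG00000149591) and MYL9 (ENSG00000101335), for the secreted CCN1 (ENSG00000142871) and CCN2 (ENSG00000118523), and for the nuclear factors ANKRD1 (ENSG00000148677) and SRF (ENSG00000112658). All 10 were among the 20056 rows of the deposited table. The listing gave the symbols, since the table itself pairs no ID with a name. The list was selected on values of these same arrays, as known from earlier work on them. Which values were used, and the part each gene's values played, is not recorded. They were taken to be the differences between compounds and DMSO. Values and counts of compound against DMSO are therefore a description, and no p-value is given for a member in them. The list has no threshold, so there are no genes just inside or outside one.

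The exposures lasted 24 h or 48 h. Cells received piperonyl butoxide at 45 µM, which is added to insecticides to slow their breakdown, or tolbutamide at 2.1 mM, a sulfonylurea. The other compounds were the alpha adrenergic agonist clonidine at 95 µM, the calcium channel blocker nifedipine at 420 µM and the antihistamine methapyrilene hydrochloride at 114 µM, together with 2-nitrofluorene at 35 µM and the tobacco nitrosamine NNK at 10 mM. The reference was 0.5 percent dimethyl sulfoxide (DMSO) for the same time, per the labels the solvent. Labels give 3 biological replicates for every compound at either time. DMSO has 6 arrays per time, 3 from each of 2 exposures. All cultures were of this 1 established line and each compound was used at 1 dose, so p-values measure the spread between cultures of a single line. The identity of the cells was not checked against marker genes here, because marker symbols could not be paired with the IDs. In RNA from whole cultures, fewer cells of a kind and less RNA per cell cannot be told apart. The study is described as comparing carcinogens with and without genotoxic action and non-carcinogens. Values are log2 expression after RMA, so a difference of 1 is a 2-fold change, and levels of different genes are not comparable with each other.

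SRF is a transcription factor that binds a short DNA element called the CArG box. When actin filaments grow, free actin monomers fall and release the cofactors of the MRTF family, which enter the nucleus and join SRF on genes of the contractile cytoskeleton. YAP and TAZ are cofactors of the Hippo pathway that respond to cell shape and tension, work through TEAD factors, and are known for CCN1, CCN2 and ANKRD1 among their targets. In liver, alpha smooth muscle actin (ACTA2) and transgelin (TAGLN) are known as markers of activated stellate cells, and muscle actins are not typical of hepatocytes.

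The stretches of DNA before the annotated starts of these genes are shown because they hold the elements just named. They are the 250 bases upstream of a start, 5′ to 3′ on the gene's strand, from RefSeq on GRCh38.p14. Of the 10 members, 7 were matched there by symbol, with 11 starts, and TAGLN, CCN1 and MYL9 were not matched. Capitals mark a CArG box or the TEAD-type letters GGAATG, searched on both strands. A CArG box was taken as CCWWWWWWGG, where W is A or T, with no mismatch allowed. Looser forms, such as ccctatatgg in the ACTA2 stretch, were not searched and stay in lower case. ACTA1 is shown at chr1:229434095-229434344, minus strand, ACTG2 at chr2:73892758-73893007, plus strand, ACTC1 at chr15:34795550-34795799, minus strand, and SRF at chr6:43171019-43171268, plus strand. ACTA2 is shown at chr10:88952774-88953023, minus strand, ANKRD1 at chr10:90921088-90921337, minus strand, and CCN2 at chr6:131951373-131951622, minus strand.
ACTA1: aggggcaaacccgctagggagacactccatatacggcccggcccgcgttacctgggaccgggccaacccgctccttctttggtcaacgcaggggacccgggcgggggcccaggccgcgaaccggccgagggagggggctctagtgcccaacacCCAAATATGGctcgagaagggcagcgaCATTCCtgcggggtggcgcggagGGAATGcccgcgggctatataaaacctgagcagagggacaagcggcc
ACTG2: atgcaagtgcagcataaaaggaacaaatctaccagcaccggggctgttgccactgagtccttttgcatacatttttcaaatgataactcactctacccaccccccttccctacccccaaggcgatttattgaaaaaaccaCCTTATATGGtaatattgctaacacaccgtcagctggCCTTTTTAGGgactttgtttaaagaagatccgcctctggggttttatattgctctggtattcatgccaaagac
ACTC1: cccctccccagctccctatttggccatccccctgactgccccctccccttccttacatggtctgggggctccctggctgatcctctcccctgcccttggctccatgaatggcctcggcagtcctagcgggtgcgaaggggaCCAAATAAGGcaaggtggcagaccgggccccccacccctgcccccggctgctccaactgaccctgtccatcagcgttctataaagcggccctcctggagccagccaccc
SRF: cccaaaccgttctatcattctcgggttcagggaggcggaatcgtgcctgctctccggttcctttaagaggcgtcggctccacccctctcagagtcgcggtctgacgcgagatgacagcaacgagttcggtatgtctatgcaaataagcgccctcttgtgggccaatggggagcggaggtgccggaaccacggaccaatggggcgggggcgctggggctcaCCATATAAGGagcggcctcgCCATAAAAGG
ACTA2: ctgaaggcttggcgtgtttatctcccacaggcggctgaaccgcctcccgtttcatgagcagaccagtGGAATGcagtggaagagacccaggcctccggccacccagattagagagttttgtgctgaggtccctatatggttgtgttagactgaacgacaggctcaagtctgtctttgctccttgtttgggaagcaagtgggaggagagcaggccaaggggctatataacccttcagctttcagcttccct
ANKRD1: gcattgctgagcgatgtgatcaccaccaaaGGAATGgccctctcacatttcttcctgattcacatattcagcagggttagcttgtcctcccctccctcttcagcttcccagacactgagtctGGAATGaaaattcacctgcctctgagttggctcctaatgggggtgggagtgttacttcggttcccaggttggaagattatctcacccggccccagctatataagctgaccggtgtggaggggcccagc
CCN2: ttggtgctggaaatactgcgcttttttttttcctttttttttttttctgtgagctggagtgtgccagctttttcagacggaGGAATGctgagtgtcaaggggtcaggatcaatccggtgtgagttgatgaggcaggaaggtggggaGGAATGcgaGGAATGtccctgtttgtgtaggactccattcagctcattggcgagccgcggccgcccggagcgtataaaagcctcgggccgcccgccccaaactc

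A CArG box with no mismatch was found before ACTA1, ACTG2, ACTC1 and SRF, which is 4 of the 7 matched members, and ACTG2 and SRF held 2 each. The search does not show that the others lack looser forms of the box. Per window, 4 of the 11 held at least 1, and 2 of these held 2. Of all 35116 promoter windows of the same length, 1.16 percent held one, and 0.0313 percent held at least 2. The box of ACTA1 began 97 bases before its start, that of ACTC1 109 bases, and those of ACTG2 110 and 73 bases. GGAATG on either strand was found before ACTA1, ACTA2, ACTC1 (at another of its starts than the one shown), CCN2 and ANKRD1, with 3 matches before CCN2 and 2 each before ACTA1 and ANKRD1. Per window, 5 of the 11 held at least 1, against 11.9 percent of all windows. TATAAA on either strand was found before ACTA1, ACTG2, ACTC1 and CCN2, in 4 of the 11 windows, against 10.7 percent of all windows. On the gene's own strand these letters are the core of a TATA box, but the ACTG2 match was on the other strand. Looser forms, such as tatataa in the ACTA2 and ANKRD1 stretches, were not searched, so the search does not list the genes with a TATA box. No matches of the 3 motifs overlapped (0 in the 11 windows). The genes were listed as known targets or partners of SRF and YAP, so nothing is read from their shares against all windows. A match is only a run of letters, and the arrays hold no measure of binding.

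**Figure D1:**
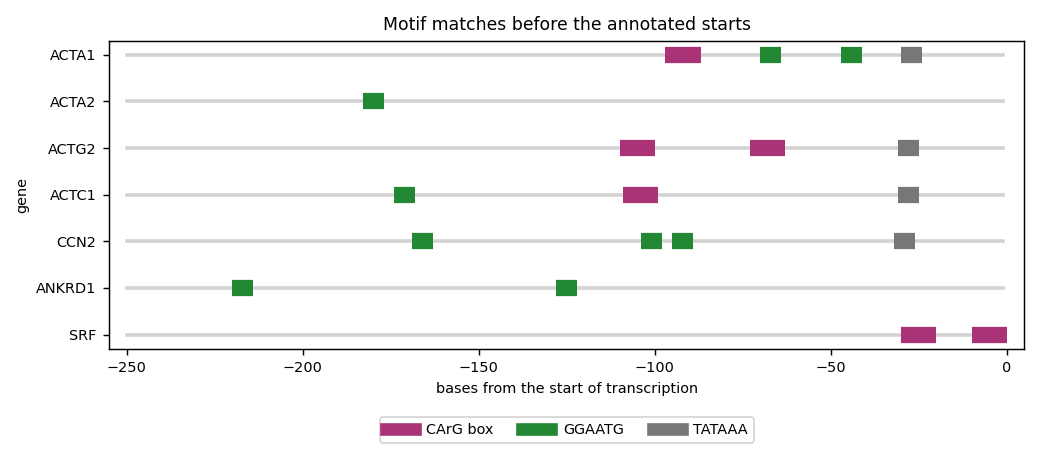
Positions of motif matches in the 250 bases before the annotated starts of the 7 matched genes, in bases from the start of transcription, with all annotated starts of a gene on 1 line. CArG boxes with no mismatch (purple) lie before ACTA1, ACTG2, ACTC1 and SRF, GGAATG matches (green) before 5 genes with 3 before CCN2, and TATAAA matches (grey) before 4.

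Before any result, 4 arrays stood apart from the other 50. Regressed on the average array, those 50 had slopes of 0.965 to 1.04, and slopes were lower in piperonyl butoxide 48 h replicate 1 (0.678), NNK 24 h replicate 2 (0.798), piperonyl butoxide 24 h replicate 2 (0.858) and DMSO 24 h exposure 2 replicate 2 (0.911). A low slope means that values on that array rose less with the average than on the others. The range of values on an array was not measured, and low-spread is used below only as a name for these 4 arrays. Their MYL9 and ACTG2 values each lay above every other array of their group. MYL9 was at 7.52 in piperonyl butoxide 48 h replicate 1, where the other 2 replicates had 6.20 and 5.97, and at 7.14 in NNK 24 h replicate 2, where the others had 5.49 and 5.67. Piperonyl butoxide differences are given with and without these arrays, and array medians lay between 5.70 and 6.21.

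Under piperonyl butoxide the skeletal muscle actin gene ACTA1 was far higher than in DMSO at both times. Its log2 values were 11.23, 11.13 and 10.79 in the 3 piperonyl butoxide replicates at 24 h, against 6.08 to 6.59 with a median of 6.20 in the 6 DMSO arrays. At 48 h they were 10.35, 11.64 and 11.45 under piperonyl butoxide, against 6.01 to 6.75 with a median of 6.22 in DMSO. Every piperonyl butoxide array lay above every DMSO array, and the lowest of them, 48 h replicate 1, was the low-spread array. The fitted difference was 4.80 (SE 0.22) at 24 h, or 27.8-fold, and 4.85 (SE 0.22) at 48 h, or 28.9-fold. Without the 4 low-spread arrays these were 4.78 and 5.29, the second of them 39.2-fold. Among the 20056 rows, ACTA1 had the rise ranked 3 by size at 24 h and 3 at 48 h.

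The other muscle actins divided. ACTG2, the enteric smooth muscle actin, had 7.02, 7.50 and 6.93 at 24 h and 8.02, 7.27 and 7.01 at 48 h under piperonyl butoxide. DMSO arrays had 5.66 to 6.64 with a median of 5.87 at 24 h and 5.87 to 6.20 with a median of 6.01 at 48 h, so the groups did not overlap. It rose by 1.15 (SE 0.20) and 1.41 (SE 0.20), which is 2.22-fold and 2.66-fold, or 1.09 and 1.13 without the low-spread arrays. ACTC1, the cardiac actin, had 7.25, 6.32 and 6.32 at 24 h and 6.67, 6.89 and 7.13 at 48 h, against 5.39 to 5.79 with a median of 5.66 and 5.43 to 5.77 with a median of 5.58 in DMSO. Again no piperonyl butoxide array overlapped DMSO, and the fitted rises were 1.01 (SE 0.15) and 1.31 (SE 0.15), 2.01-fold and 2.49-fold, or 1.23 and 1.45 on the log2 scale without the low-spread arrays. Without piperonyl butoxide 24 h replicate 1, the highest of its group, the 24 h rise of ACTC1 was 0.68, and the fit still called it.

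ACTA2, the vascular smooth muscle actin, moved the opposite way. Its values under piperonyl butoxide were 8.78, 8.40 and 8.73 at 24 h, against 9.21 to 9.71 with a median of 9.44 in DMSO, and 8.55, 8.91 and 8.96 at 48 h, against 9.02 to 9.73 with a median of 9.42 in DMSO. All 6 piperonyl butoxide arrays lay below all DMSO arrays of their time. ACTA2 fell by 0.81 (SE 0.12) and by 0.62 (SE 0.12) on the log2 scale, which is 1.76-fold and 1.53-fold lower. Without the low-spread arrays its differences were -0.77 and -0.54. With all arrays that at 48 h was -0.20 and not called after cyclic loess between arrays. The coding sequences of muscle actins are known to be very similar, and signal shared between actin rows could not be checked without the probe sequences.

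TAGLN encodes transgelin, an actin-binding protein of smooth muscle and a widely used target of SRF. Under piperonyl butoxide it had 10.23, 9.55 and 9.79 after 24 h. After 48 h it had 9.54, 10.48 and 10.53. DMSO arrays had 6.69 to 7.74 with a median of 7.39 at 24 h and 6.71 to 7.74 with a median of 7.49 at 48 h. The groups were far apart at both times, with rises of 2.54 (SE 0.21) and 2.79 (SE 0.21), or 5.8-fold and 6.92-fold. The low-spread arrays were the lowest of both groups, and without them TAGLN rose by 2.73 and 3.18, or 6.63-fold and 9.08-fold. MYL9, the regulatory light chain of nonmuscle and smooth muscle myosin, had 6.01, 6.71 and 5.87 at 24 h and 7.52, 6.20 and 5.97 at 48 h, against 5.35 to 6.65 with a median of 5.54 and 5.46 to 6.34 with a median of 5.71 in DMSO. These groups overlapped. The 24 h difference of 0.44, or 0.36 without the low-spread arrays, was not called, and the 48 h rise of 0.76 (SE 0.26) became 0.23 and was not called without the low-spread arrays, or without piperonyl butoxide 48 h replicate 1 alone.

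CCN1 and CCN2 encode secreted matricellular proteins of 1 family, both known as targets of YAP. CCN1 rose at both times, and CCN2 did not. CCN1 had 10.85, 10.98 and 9.68 at 24 h and 10.16, 10.36 and 11.36 at 48 h under piperonyl butoxide, against 7.25 to 8.88 with a median of 7.92 and 7.38 to 8.55 with a median of 8.06 in DMSO. No piperonyl butoxide array reached down to the DMSO range, and CCN1 rose by 2.51 (SE 0.33) and 2.68 (SE 0.33), or 5.71-fold and 6.39-fold. Without the low-spread arrays its rises were 2.51 and 3.12, 5.7-fold and 8.67-fold. CCN2 had 12.05, 12.41 and 12.66 at 24 h and 11.02, 12.33 and 11.82 at 48 h, against 12.26 to 13.29 with a median of 13.00 and 11.73 to 13.21 with a median of 12.82 in DMSO. Those ranges overlapped at both times, although each of the 6 replicates was below the mean of its 2 matched DMSO arrays. The 24 h difference of -0.56 (SE 0.22), or -0.51 without the low-spread arrays, was not called. The 48 h fall of CCN2, -0.96 (SE 0.22), was -0.47 and not called without piperonyl butoxide 48 h replicate 1, and -0.41 and not called after cyclic loess.

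Among the nuclear factors, ANKRD1, a cardiac ankyrin repeat cofactor and known YAP target, had 8.65, 8.15 and 8.86 at 24 h under piperonyl butoxide, against 5.86 to 6.99 with a median of 6.20 in DMSO. At 48 h it had 7.09, 8.35 and 8.90, against 5.46 to 7.03 with a median of 6.13 in DMSO. The lowest 48 h value, that of the low-spread array, was just above the highest DMSO array. ANKRD1 rose by 2.17 (SE 0.38) and 1.84 (SE 0.38), or 4.49-fold and 3.58-fold. Without the low-spread arrays the rises were 2.39 at 24 h and 2.69 at 48 h, the second of them 6.44-fold. Leaving out piperonyl butoxide 48 h replicate 3 gave 1.21. SRF itself had 7.39, 7.38 and 7.20 at 24 h and 7.19, 7.34 and 7.33 at 48 h, against 6.46 to 6.83 with a median of 6.69 and 6.50 to 6.84 with a median of 6.60 in DMSO. The groups did not overlap and the replicates were close together, with rises of 0.64 and 0.64 (SE 0.08 each), 1.55-fold and 1.56-fold. Without the low-spread arrays the SRF rises were 0.63 and 0.67.

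**Figure D2:**
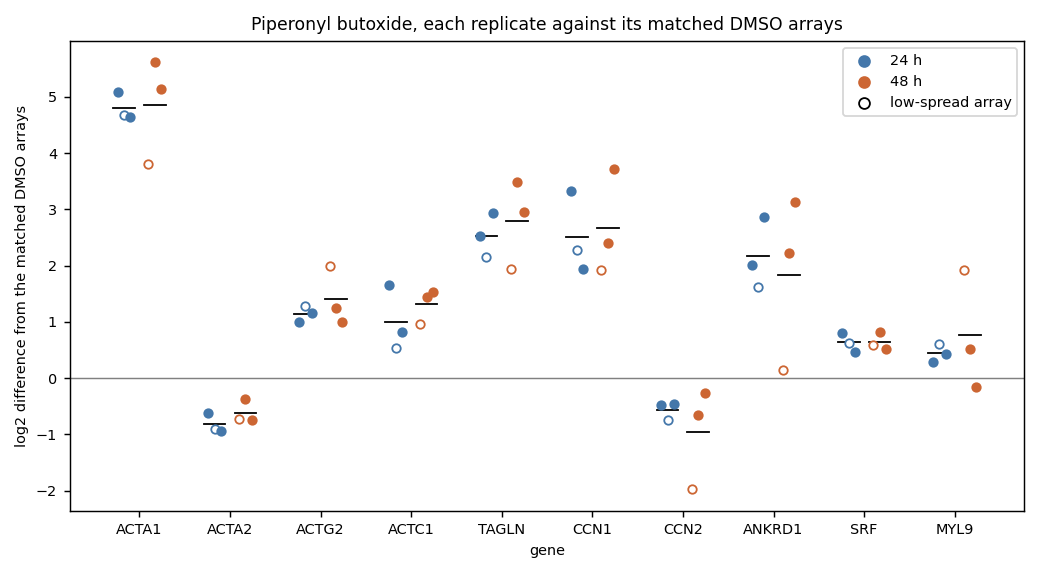
Log2 difference of each piperonyl butoxide replicate from the mean of its 2 matched DMSO arrays, per gene, at 24 h (blue) and 48 h (orange), with bars for fitted differences and open points for low-spread arrays. ACTA1 lies between 3.80 and 5.62 in all 6 replicates, ACTA2 and CCN2 lie below 0 in all 6, and the open 48 h points of ANKRD1, CCN2 and MYL9 lie away from the other 2.

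Counted over the list, 7 of 10 members rose and 1 fell under piperonyl butoxide at 24 h at an adjusted p under 0.05 in limma (Benjamini-Hochberg over all rows), where 26.0 percent of all rows were called, 10.9 percent higher and 15.1 percent lower. At 48 h 8 rose and 2 fell, against 58.7 percent of all rows, 38.1 percent higher and 20.6 percent lower. Without the low-spread arrays 7 rose and 1 fell at each time, where 31.6 and 38.5 percent of all rows were called. As the list was chosen with this contrast known, nothing is read from these counts. In 7 members at each time all 3 piperonyl butoxide arrays lay above all 6 DMSO arrays, against 7.25 and 15.1 percent of all rows. In 1 member, ACTA2, all 3 lay below all DMSO arrays at each time, against 9.49 and 12.7 percent of all rows. The median log2 difference of the 10 was 1.08 at 24 h and 1.36 at 48 h, against 0.099 and 0.21 over all rows. Centring each array on its median gave 48 h medians of 1.24 for the members and 0.08 for all rows, and cyclic loess gave 1.10 and 0.01.

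Under the other 6 compounds 0 of 10 members were called higher than DMSO by limma in any of 12 contrasts with all arrays, while some were called lower. ACTA1 was lowest under tolbutamide, with 5.49, 4.95 and 5.39 at 24 h and 4.93, 4.86 and 5.05 at 48 h. DMSO values began at 6.08 and 6.01, so the groups did not overlap at either time. ACTA1 fell by 0.98 (SE 0.22) and by 1.35 (SE 0.22), 1.97-fold and 2.55-fold lower. Its tolbutamide values lay below every array median (5.70 to 6.21), and how near they are to background was not tested. TAGLN had 7.05, 5.88 and 6.25 at 24 h and 6.28, 5.81 and 5.92 at 48 h under tolbutamide, against medians of 7.39 and 7.49 in DMSO. It fell by 0.93 (SE 0.21) with overlapping groups at 24 h and by 1.39 (SE 0.21) with separate groups at 48 h. These were the 2 of 10 members called at each time, both lower, where 2.02 percent of all rows were called at 24 h and 2.20 percent at 48 h. Without tolbutamide 24 h replicate 2 neither 24 h fall was called, with differences of -0.77 for ACTA1 and -0.68 for TAGLN. The 48 h ANKRD1 difference of -0.97 (SE 0.38) was called without the low-spread arrays and not with all. No 48 h tolbutamide or DMSO array was low-spread, so the difference stayed at -0.97 and its SE became 0.28. Likewise, the 48 h calls of other compounds gained in this way, given below, came with unchanged differences and smaller SEs.

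Clonidine gave 0 calls in limma among the members at 24 h, where 0.00499 percent of all rows were called. At an unadjusted p under 0.05, 3 members and 1.14 percent of all rows were lower. At 48 h 2 of 10 fell, against 0.384 percent of all rows. TAGLN had 5.91, 6.44 and 6.09 under clonidine, all below the lowest DMSO array at 6.71, and fell by 1.24 (SE 0.21), 2.37-fold. CCN1 had 6.67, 5.81 and 7.14, against 7.38 to 8.55 with a median of 8.06 in DMSO, and fell by 1.41 (SE 0.33), 2.66-fold. Neither was called without clonidine 48 h replicate 1, at -1.08 for TAGLN and -1.31 for CCN1, and CCN1 was also not called (-1.41) without the replicate block, or with 1 array left out when that was clonidine 48 h replicate 2, DMSO 48 h exposure 1 replicate 1, or any of the 3 DMSO 48 h exposure 2 replicates. ACTA1 had 5.34, 5.13 and 5.76, all below DMSO, a difference of -0.89 (SE 0.22) that was called without the low-spread arrays and not with all. The same held for the ANKRD1 difference of -1.07 (SE 0.38).

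Nifedipine differed between genes. At 24 h ACTA2 had 8.66, 8.67 and 9.34 under nifedipine, against 9.21 to 9.71 with a median of 9.44 in DMSO, and fell by 0.56 (SE 0.12). It was the 1 of 10 members called, where 8.18 percent of all rows were, and it was not called without nifedipine 24 h replicate 1 (-0.46). ANKRD1 had 8.13, 8.21 and 5.95 at 24 h, so that 2 replicates were above all DMSO arrays and the third was inside their range. Its difference of 1.05 (SE 0.38) was not called, and it was called at 0.94 without the low-spread arrays and at 1.62 without nifedipine 24 h replicate 3. At 48 h the 2 calls of 10, against 5.79 percent of all rows, were ACTA1 with 5.58, 5.20 and 5.71 and CCN1 with 7.77, 5.68 and 6.05. ACTA1 fell by 0.80 (SE 0.22) and lay wholly below DMSO, while CCN1 fell by 1.45 (SE 0.33) with overlapping groups. Neither was called without nifedipine 48 h replicate 2, at -0.67 and -1.15, and CCN1 was also not called without replicate 3. The 48 h TAGLN difference of -0.61 was called without the low-spread arrays and not with all.

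Methapyrilene gave 0 calls in limma among the members at 24 h (1.53 percent of all rows), and 2 falls at 48 h (5.00 percent of all rows). At 24 h 3 members and 4.53 percent of all rows were lower at an unadjusted p under 0.05. ACTA2 had 8.72, 8.84 and 8.83 at 48 h, against 9.02 to 9.73 with a median of 9.42 in DMSO, and fell by 0.62 (SE 0.12). TAGLN had 6.52, 6.50 and 6.53, all below DMSO, and fell by 0.87 (SE 0.21), a call that was lost without methapyrilene 48 h replicate 1 (-0.84) or 3 (-0.85). ACTA1 at 5.16, 5.77 and 5.99 also lay below every DMSO array of that time, with a difference of -0.66 (SE 0.22) that was called without the low-spread arrays and not with all. 2-Nitrofluorene gave 0 calls at 24 h (0.324 percent of all rows) and 0 at 48 h (0.369 percent) in limma. At an unadjusted p under 0.05 there were 4 members at 24 h and 3 at 48 h, where 3.55 and 3.69 percent of all rows passed. Its largest member differences were in ANKRD1, with 5.68, 5.82 and 4.98 at 24 h and 5.82, 4.78 and 4.91 at 48 h, or -0.89 and -1.10 (SE 0.38 each). The second of these and the 48 h TAGLN difference of -0.81 were called without the low-spread arrays. NNK gave 0 calls in limma at 24 h and 0 at 48 h (0 percent of all rows). At an unadjusted p under 0.05 there were 1 and 0 members, where 7.14 and 1.46 percent of all rows passed. NNK gave ACTA1 differences of 0.08 and -0.12 (SE 0.22 each).

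**Figure D3:**
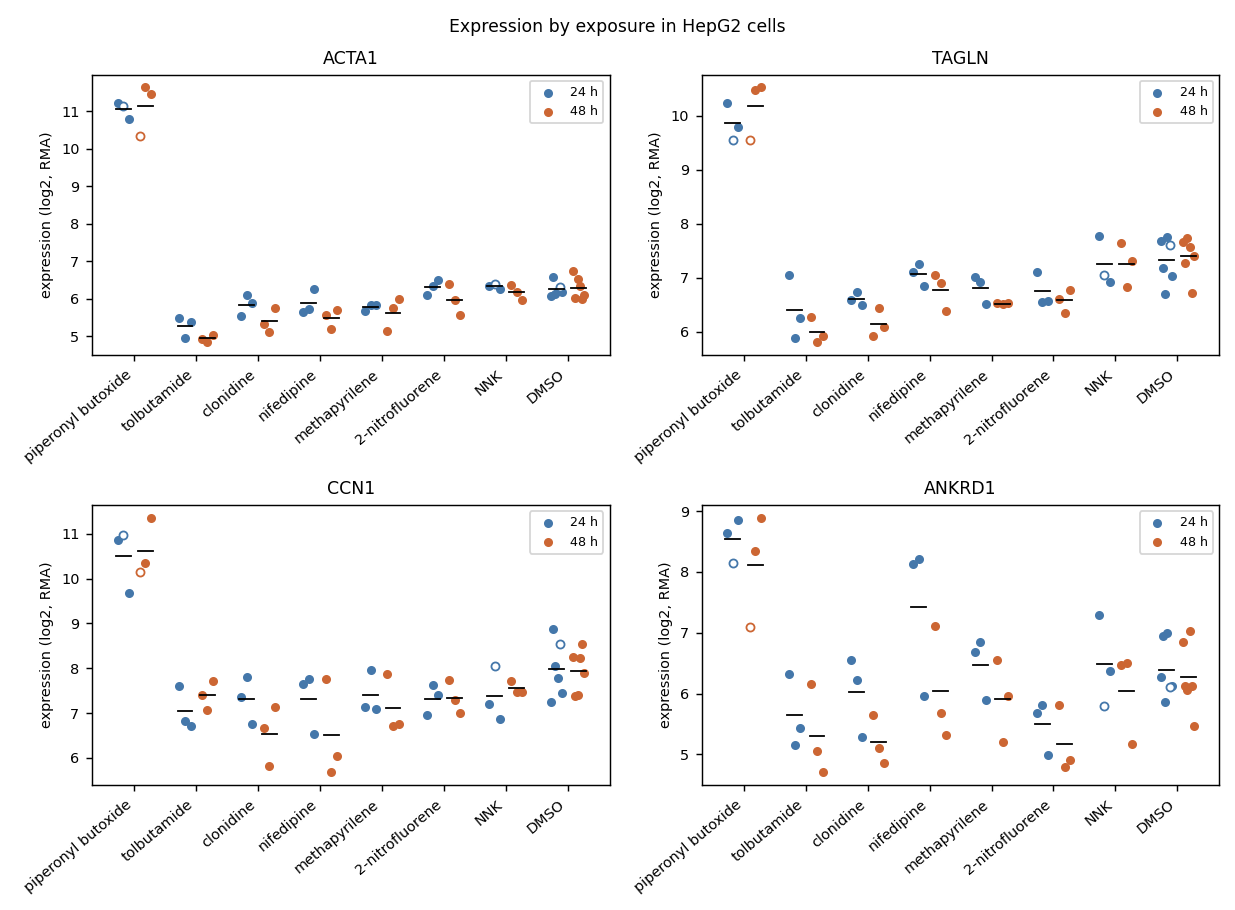
Log2 RMA expression of ACTA1, TAGLN, CCN1 and ANKRD1 on every array, by compound with DMSO at the right, at 24 h (blue) and 48 h (orange), with points for arrays, open points for low-spread arrays and bars for group means. Piperonyl butoxide arrays lie above DMSO in all 4 panels, and the 48 h tolbutamide arrays of ACTA1 (4.86 to 5.05) and TAGLN (5.81 to 6.28) lie below it.

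Ordered by level at 48 h, ACTA1 averaged 11.15 ± 0.70 on the log2 scale under piperonyl butoxide (SD, n = 3). Next came DMSO with 6.29 ± 0.30 (SD, n = 6 arrays, exposures not averaged), NNK with 6.17 ± 0.21 and 2-nitrofluorene with 5.98 ± 0.42 (SD, n = 3 each). Methapyrilene had 5.64 ± 0.43, nifedipine 5.49 ± 0.27, clonidine 5.41 ± 0.32 and tolbutamide 4.95 ± 0.10 (SD, n = 3 each). Neighbours from DMSO down to clonidine differed by less than the larger of their SDs. The steps from DMSO to piperonyl butoxide and from clonidine to tolbutamide each exceeded both SDs. At 24 h the order was piperonyl butoxide at 11.05 ± 0.23, NNK at 6.34 ± 0.06, 2-nitrofluorene at 6.32 ± 0.19, DMSO at 6.26 ± 0.19, nifedipine at 5.89 ± 0.33, clonidine at 5.84 ± 0.28, methapyrilene at 5.78 ± 0.08 and tolbutamide at 5.28 ± 0.28. Tolbutamide stood last at both times.

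**Figure D4:**
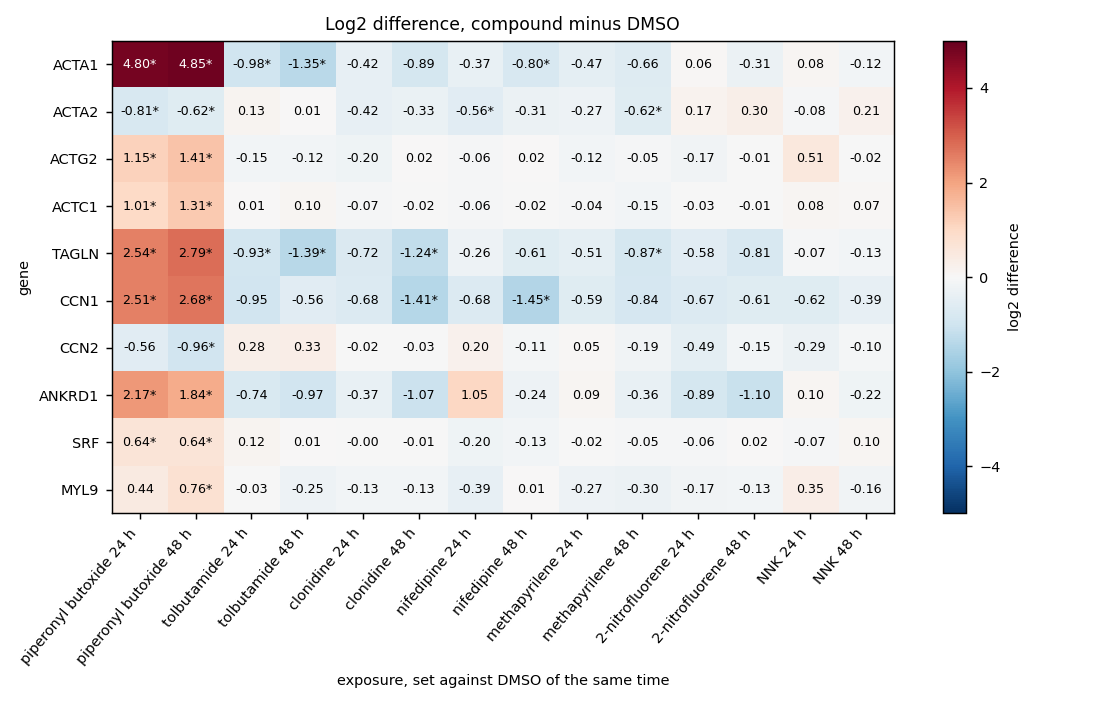
Fitted log2 differences of the 10 genes for each compound and time minus DMSO of that time, with * at an adjusted p under 0.05. The 2 piperonyl butoxide columns are positive in 8 of 10 genes, and TAGLN and CCN1 are below 0 in all 12 other columns.

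Across the 12 contrasts of the other 6 compounds, TAGLN and CCN1 were below DMSO in all 12, between -1.39 and -0.07 for TAGLN and between -1.45 and -0.39 for CCN1. ACTA1 was below DMSO in 10 of 12, between -1.35 and 0.08, and the differences of these 3 genes were called in the 9 cases given above. These contrasts share the DMSO arrays of their time, so the recurrence is not independent. How many of all rows keep their sign in this way was not counted, so nothing is read from the recurrence. ACTG2, ACTC1 and SRF lay between -0.20 and 0.51 of DMSO in these 12 contrasts and were called in 0 of them in limma. The 0.51 was ACTG2 under NNK at 24 h, where the low-spread replicate 2 had 7.57 and the other 2 replicates 6.12 and 5.85. CCN2 stayed between -0.49 and 0.33 and was also called in 0. MYL9 lay between -0.39 and 0.35 with 0 calls, and ANKRD1 ranged more widely, between -1.10 and 1.05, with 0 calls with all arrays in limma. In DMSO, ACTC1 averaged 5.62 at 24 h and 5.58 at 48 h, ACTG2 6.00 and 6.02, and MYL9 5.75 and 5.80. Array medians lay between 5.70 and 6.21, and no detection calls were used. Whether these genes could fall measurably from such levels was not tested. ACTA2, between -0.62 and 0.30, was called lower in the 2 cases given above.

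The difference between the times was also described, as the 48 h difference minus the 24 h difference. Under piperonyl butoxide it lay between -0.40 (CCN2) and 0.32 (MYL9), and it was 0.06 (SE 0.30) for ACTA1, or 0.51 (SE 0.31) without the low-spread arrays. Without them CCN2 was at 0.04 and MYL9 at -0.13. For all 7 compounds 0 of 10 members were called in limma, and 2 of the 70 values had an unadjusted p under 0.05, where 4.79 percent of the values of all rows did. Of all rows, 1.07 percent were called for piperonyl butoxide. That share was 0.0897 percent for methapyrilene, 0.0399 percent for nifedipine, 0.0299 percent for tolbutamide, 0.00499 percent for clonidine and 0 for 2-nitrofluorene and NNK. The difference farthest from 0 among the members was that of ANKRD1 under nifedipine, -1.28 (SE 0.54), where 2 of 3 arrays were high at 24 h.

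Solvent cultures gave a comparison that was taken to have had no part in the choice of the genes, although this is not recorded. Between 48 h and 24 h of DMSO, averaged over the 2 exposures of a number, 0 of 10 members were called in limma, where 0.0249 percent of all rows were. At an unadjusted p under 0.05 there were 0 members, where 1030 of the 20056 rows passed, so nothing is read from that 0. ACTA1 averaged 6.29 ± 0.26 at 48 h and 6.26 ± 0.18 at 24 h in DMSO (SD, n = 3 each), a difference of 0.04 (SE 0.16, limma adjusted p = 1.00). The differences of the 10 lay between -0.25 (CCN2) and 0.07 (TAGLN). Between DMSO exposure 2 and exposure 1, 0 of 10 members were called in limma at 24 h and 0 at 48 h, with 0 percent of all rows called. At an unadjusted p under 0.05 there were 0 members at each time, with no share of all rows given, so nothing is read from it. The differences between exposures lay between -0.15 and 0.28 at 24 h and between -0.32 and 0.55 at 48 h.

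In some genes the same replicate number was the lowest in many groups. At 24 h, replicate 3 had the lowest CCN1 in 6 of 8 groups and replicate 1 had the lowest CCN2 in 7 of 8. At 48 h, replicate 3 had the lowest CCN2 in 6 of 8 groups and the lowest ANKRD1 in 5. ANKRD1 at 48 h, for example, was 6.15, 5.05 and 4.71 under tolbutamide, 7.11, 5.69 and 5.31 under nifedipine and 5.65, 5.10 and 4.86 under clonidine. Other genes were more even. At 24 h replicates 1, 2 and 3 had the lowest SRF in 3, 3 and 2 groups, and the lowest ACTC1 in 3, 2 and 3. Such counts were not made over all rows, and the uneven examples were picked from all members and both times, so nothing is read from them. The replicate number was a block in the fit because the labels match compound and DMSO arrays by number.

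**Figure D5:**
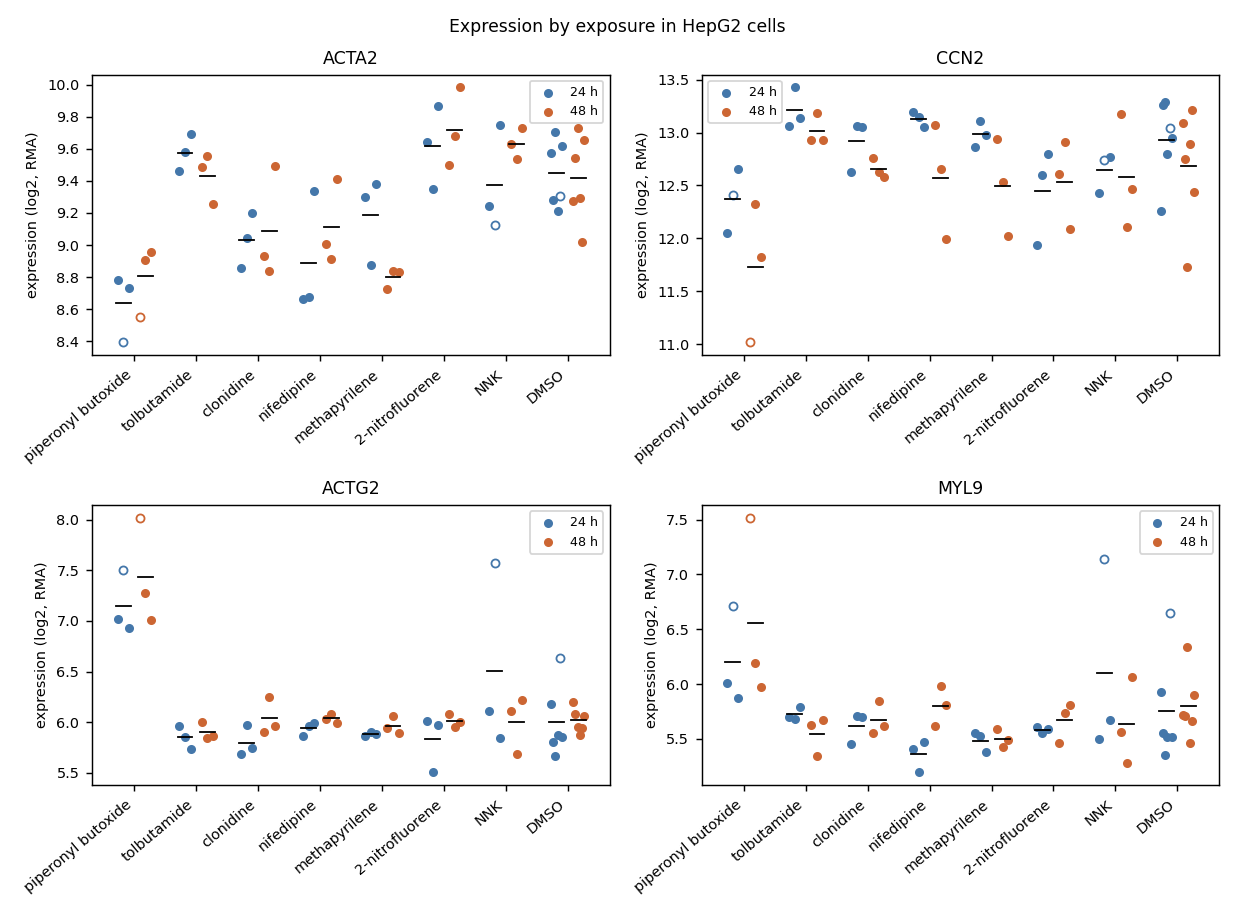
Log2 RMA expression of ACTA2, CCN2, ACTG2 and MYL9 on every array, by compound with DMSO at the right, at 24 h (blue) and 48 h (orange), with points for arrays, open points for low-spread arrays and bars for group means. Piperonyl butoxide arrays of ACTA2 (8.40 to 8.96) lie below DMSO, and the open points of ACTG2 and MYL9 lie above the other arrays of their groups.

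By Pearson correlation over the 16 group means, among the 5655 rows whose means spanned at least 1 on the log2 scale, TAGLN had the third highest likeness to ACTA1 (r = 0.98). ENSG00000169429 and ENSG00000070778, not named by the files, came before it (r = 0.98 each). CCN1 had r = 0.96, ACTC1 0.96, ACTG2 0.94, ANKRD1 0.84, MYL9 0.83, ACTA2 -0.53 and CCN2 -0.73, and SRF spanned less than 1. The span was taken over all 16 groups, piperonyl butoxide included. Without the piperonyl butoxide groups the means of ACTC1, ACTG2, MYL9, ACTA2 and CCN2 spanned less than 1, so they passed only through those groups. Nothing is read from the correlations over 16 groups. Most of the correlations were lower without the piperonyl butoxide groups. Over the 14 other group means TAGLN kept r = 0.85 with ACTA1, against 0.60 for CCN1, 0.40 for ANKRD1, 0.35 for ACTG2, 0.31 for MYL9 and 0.08 for ACTC1. CCN2 had r = -0.40 there, and ACTA2 changed sign, to 0.27. Leaving out the low-spread arrays as well gave 0.03 for ACTG2, -0.03 for MYL9 and -0.20 for ACTC1. TAGLN then had 0.85, CCN1 0.52, ANKRD1 0.43, ACTA2 0.31 and CCN2 -0.42. The lowest correlations over 16 groups were those of ENSG00000215256 and ENSG00000205060 (r = -0.98 each). All group means share the normalization of the table, and the correlations are a description with no test.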

How the data were processed

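RNA from 54 HepG2 cultures was measured on single-channel expression arrays. Per the submitters' processing notes, RMA was the method behind the deposited log2 values. It adjusts background, normalizes arrays to each other and summarises probes. Neither its version nor how probe sets were defined is given in the sources used here, and no probe-level files, detection calls or scan dates were used here. Values of 20056 rows entered unfiltered. The number of arrays limits the precision.

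Fits used limma 3.58.1 under R 4.3.3, by lmFit then eBayes with two-sided tests. All arrays entered with 16 groups and the replicate number within a time as a block, which left 34 residual degrees of freedom. The 6 DMSO arrays of a time formed 1 group that all compounds of that time share. In it the 2 exposures of a number counted as separate arrays, although they share that number. If they are not independent, the SEs of these fits are too small. P-values were adjusted over all rows within a contrast, and a gene was called at an adjusted p under 0.05. DMSO at 48 h was set against 24 h after the 2 exposures of a number were averaged, and exposures were compared with each as its own group. The script was tested on simulated data. The labels name the DMSO arrays that match each compound array by number. As a check, deviations from group means correlated at 0.233 at 24 h and 0.203 at 48 h on average between arrays of 1 number, with 77 and 74 of 108 pairs above 0.1, so the pairing comes from the labels and not from every pair.

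The members, lists and alternatives were chosen with earlier results of these data known. All 10 members are named, and of the rows most like or least like ACTA1 at most 2 IDs each. Lists of other SRF and YAP pathway genes and of cell type markers, written by symbol, could not be matched to the IDs and were not analysed here. Alternatives were no block, fits on fewer arrays, either DMSO exposure alone, centring, cyclic loess, array weights, eBayes with trend and robust options, rows with the lowest means left out, and leaving out single arrays or the 4 low-spread arrays.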

Additional observations from a re-analysis of the deposited data

How the results depend on the processing

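Of 1400 log2 differences of single members under settings other than leaving out 1 array, 1379 moved by less than the spread between replicates, 21 moved by more and 0 called values changed sign. With 1 array left out, 1245 of 1260 moved by less than that spread, 15 by more, and 0 called values changed sign. Calls of piperonyl butoxide stayed within 1.5 times of 8 at 24 h and 10 at 48 h under every alternative run, and those of NNK and of clonidine at 24 h were 0 throughout. With no replicate block, 1 member was called for clonidine 48 h, where the block gave 2, and the other counts stayed within 1.5 times. Fitting only a compound and the DMSO arrays of its time called 1 for tolbutamide 24 h, 1 for clonidine 48 h, 0 for nifedipine 24 h and 2 for 2-nitrofluorene 48 h. DMSO exposure 1 alone called 0 for tolbutamide 24 h, 1 for clonidine 48 h and 1 for nifedipine 48 h. DMSO exposure 2 alone called 1 each for tolbutamide 24 h, clonidine 48 h, nifedipine 48 h and methapyrilene 48 h. Centring each array called 1 for clonidine 48 h. Array weights called 4 for tolbutamide 24 h, 5 for clonidine 48 h, 4 for nifedipine 24 h, 1 for methapyrilene 24 h, 4 for methapyrilene 48 h, 1 for 2-nitrofluorene 24 h and 2 for 2-nitrofluorene 48 h. Without the low-spread arrays 4 were called for clonidine 48 h, 2 for nifedipine 24 h and 2 for 2-nitrofluorene 48 h. Shares of all rows called were given above for the fit with all arrays, and they can differ under an alternative. For compounds other than piperonyl butoxide, no such share is given under the alternatives. A higher or lower count of members there lacks a background, and nothing is read from it. At 48 h, leaving out the low-spread arrays kept the differences of compounds other than piperonyl butoxide and made the SEs of the calls it added smaller. The cause of the other changed counts was not tested.

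With 1 array left out, calls ranged from 8 to 9 for piperonyl butoxide 24 h, 8 to 10 for piperonyl butoxide 48 h, 0 to 2 for tolbutamide 24 h, 0 to 2 for clonidine 48 h, 0 to 2 for nifedipine 24 h, 0 to 3 for nifedipine 48 h, 1 to 2 for methapyrilene 48 h and 0 to 1 for 2-nitrofluorene 48 h. Tolbutamide 48 h stayed at 2. The 0 was reached without tolbutamide 24 h replicate 2, clonidine 48 h replicate 1, nifedipine 24 h replicate 1 or nifedipine 48 h replicate 2. The single call of 2-nitrofluorene 48 h came without DMSO 48 h exposure 2 replicate 2. These ranges also come with no share of all rows, so they are a description only. DMSO 48 h against 24 h and the differences between times had 0 calls in limma under the alternatives run.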
